A study of Pleuronichthys verticalis with 38 samples.

Results

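The livers of 5 hornyhead turbot (Pleuronichthys verticalis) given a low dose of polychlorinated biphenyls (PCBs) were compared with those of 6 fish injected with oil alone, 11 of the 38 fish of the series. The fish were chosen by their titles, Low PCB and Oil Control. Each low PCB fish was injected once into the body cavity with 13 PCB congeners in peanut oil, at 1 µg per g body mass. They were tetrachlorinated congeners (49, 52 and 66), pentachlorinated ones (87, 99, 101, 105 and 118), hexachlorinated ones (138, 149 and 153) and heptachlorinated ones (170 and 180). Oil controls received peanut oil alone, the injection volume was 2 mL of oil per kg, and livers were taken 96 h later, also from the other groups. The low PCB fish were numbered 2, 29, 39 and 52 (females) and 33 (male). The oil controls were numbered 8, 15, 45 and 47 (males), 49 (female) and 20 (immature). The labels give no age. The other 27 fish were seawater controls that were not injected, fish given 10 µg per g of PCBs (high PCB), and fish given 0.5 or 5 µg per g of polybrominated diphenyl ethers (low and high PBDE). Seawater control 7 has a description that names the vehicle instead, and it was grouped by its title and source.

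PCBs are chlorinated biphenyls once used as insulating and hydraulic fluids, which persist in sediment and build up in bottom-living fish. In vertebrate liver, congeners that can take a flat shape bind the aryl hydrocarbon receptor, a transcription factor whose best known target is the enzyme gene cyp1a, while congeners with several chlorines next to the bond between the rings bind it weakly or not at all. Congeners 105 and 118 of the mixture have a single chlorine at such a position and are counted among the dioxin-like PCBs.

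Liver RNA was measured with 1 custom array of 1 colour for each fish. Probes carry contig numbers in the files but no gene names, so cyp1a and other known PCB targets, and the markers of liver or other cell types, could not be looked up, and the labelled tissue was not checked against its markers. Probes are therefore given by their identifiers. No sequence of the probes was used here. A level is the log2 of the processed signal minus the log2 of the 75th percentile of that array, so a level of 0 is a signal at that percentile. "Well above background" is the scanner software's own call for a spot. In a whole tissue, fewer cells of a type and less RNA per cell cannot be told apart.

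The arrays were first compared for quality. In low PCB fish 8983 ± 800 probes (SD, n = 5) were well above background, from 7618 to 9502, against 8924 ± 526 (SD, n = 6), from 8243 to 9476, in oil controls (exact permutation test, two-sided, p = 0.900). The 75th percentile of signal was 127 ± 47.8 intensity units (SD, n = 5) against 130 ± 26.3 (SD, n = 6; exact permutation p = 0.905), and the median background was 32.2 against 32.5 units (exact permutation p = 0.846). Across probes, the median correlation of log2 levels was 0.942 for pairs of low PCB fish (0.933 to 0.953), 0.952 for pairs of oil controls (0.937 to 0.957) and 0.945 for pairs of 1 fish from each group (0.924 to 0.959). The difference in mean correlation between the groups was -0.00719 (exact permutation p = 0.275), and all 4 array measures had a Benjamini-Hochberg adjusted p of 0.905. Within each of the 5 slides that held both groups, the low PCB fish correlated less with its own group than the oil control did, with a mean difference of -0.00852 (range -0.0112 to -0.00250). These 5 differences share pairwise correlations and are not independent, so no test over slides was made. Oil control 20, the lowest of the oil controls at 0.943, was in no pair. The part of this difference in the results was not tested.

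The question of the comparison was which transcripts the low dose altered, with the vehicle held constant. No probe passed the test at an adjusted p under 0.05 (0 of 10492, 0%, limma with sex in the model), and the smallest adjusted p was 0.465. An unadjusted p under 0.05 was reached by 788 probes (7.51%), where 524.6 are expected if no probe differs. The count was below that number with normexp background correction, at 355, and when only the 11 arrays were fitted with sex, at 453. It stayed within 1.5 times of 788 in 27 of 31 other settings. Normexp is a model-based alternative to the scanner's subtraction. As used here it also added an offset of 50 units to every signal, which by itself shrinks log2 differences at dim probes. The 788 probes were 385 with a higher mean after low PCB (3.67%) and 403 with a lower one (3.84%). The p-values measure the spread between fish, each of which is a separate animal, and that spread was estimated from all 38 arrays of the series.

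Most probes had similar levels in the groups. The median log2 difference over the 10492 probes, low PCB minus oil, was 0.01, the middle 50% lay between -0.26 and 0.28, and the middle 98% between -1.42 and 1.40. A difference of more than 1 log2 unit, a factor of 2, was seen at 614 probes, 320 higher and 294 lower. Only 62 probes differed by more than 2 log2 units, and these were variable ones, with a median residual SD between fish of 1.46 log2 units and a median SE of the difference of 0.93, against a residual SD of 0.57 at the median probe. The most extreme differences, -4.99 and 5.41, had adjusted p of at least 0.465 like the rest.

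The intervals show how large a difference the data leave room for. At 4613 probes (44.0%) the 95% interval of the difference, not adjusted for the number of probes, lay within 1 log2 unit of 0 on both sides. At the other probes the interval reached past 1 log2 unit in at least 1 direction. Its half-width at the median probe was 0.77 log2 units. Precision depended on signal. When the probes were put in 4 sets of 2623 by their mean level over all 38 arrays, the median residual SD was 0.78, 0.55, 0.49 and 0.42 from the dimmest to the brightest set, and 11.9%, 47.1%, 53.3% and 63.5% of the intervals lay within 1 log2 unit of 0. The unadjusted p under 0.05 were also more frequent among bright probes, at 4.69%, 5.99%, 8.92% and 10.4% of the 4 sets, and none of these passed.

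**Figure D1:**
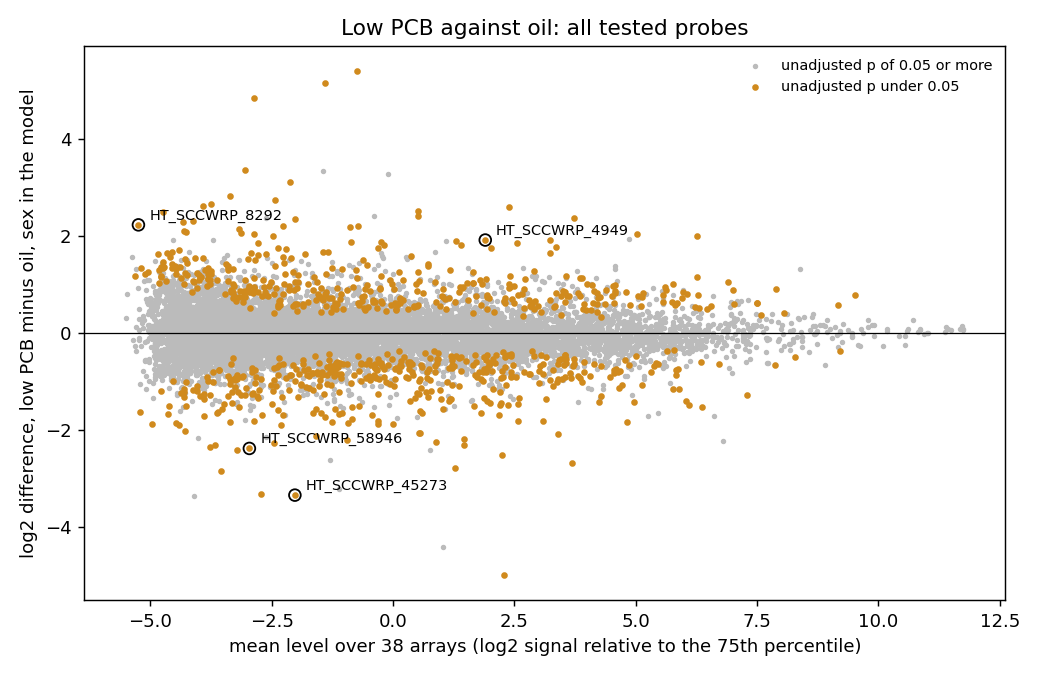
Each point is 1 of 10492 tested probes, with its mean level over 38 arrays (log2 signal relative to the array's 75th percentile) on the horizontal axis and the log2 difference, low PCB minus oil with sex in the model, on the vertical axis. Orange points are the 788 probes at an unadjusted p under 0.05, and circles mark the 4 probes described by name; the cloud narrows from left to right, as the residual SD falls from 0.78 in the dimmest set to 0.42 in the brightest.

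The 2 probes of smallest p in either direction are described fish by fish, although none of them passed. HT_SCCWRP_4949 was a bright probe, well above background in every fish of the series. Its level was 1.62, 3.03, 2.87, 2.62 and 2.26 in low PCB fish 2, 29, 33, 39 and 52. In oil controls 8, 15, 20, 45, 47 and 49 it was 0.78, 1.20, 0.36, 1.62, 0.66 and 1.37. All low PCB fish were above all oil controls, but the lowest of them, fish 2, and the highest oil control, fish 45, were equal to 2 decimals. The means were 2.48 ± 0.56 (SD, n = 5) and 1.00 ± 0.48 (SD, n = 6), with a sex-adjusted log2 difference of 1.92 (SE 0.44, 95% interval 1.03 to 2.82, limma adjusted p = 0.465), a factor of 3.79. The size depended on the sex term. The log2 difference was 1.48 without it and 1.40 when only the 11 arrays were fitted with sex. Within a sex, against or from a lone fish, it was 1.01 among females and 1.80 among males.

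HT_SCCWRP_8292 was the other probe of this direction, and a dim one. Its level in low PCB fish 2, 29, 33, 39 and 52 was -3.46, -5.12, -3.75, -2.96 and -4.10. It was -5.66, -5.13, -5.80, -6.08, -6.45 and -6.30 in oil controls 8, 15, 20, 45, 47 and 49. The groups did not overlap, though low PCB 29 and oil control 15 lay side by side. It was well above background in 3 of 5 low PCB fish (33, 39 and 52) and in 0 of 6 oil controls. In the other groups only seawater control 35 and low PBDE 12 had it well above background. It thus met the filter for testing, at least 5 arrays of the series, with none to spare. Without the 3 low PCB fish it would not have been tested, so its testing depended on the group in which it was higher. A filter on the low PCB and oil arrays alone dropped it. The log2 difference was 2.24 (SE 0.51, limma adjusted p = 0.465), and no fold is given because the oil level is only a bound and the low PCB mean did not exceed that bound.

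HT_SCCWRP_45273 had the smallest p among probes with a lower mean after low PCB. Its level was -4.32, -3.44, -3.26, -4.78 and -2.41 in low PCB fish 2, 29, 33, 39 and 52. Oil controls 8, 15, 20, 45, 47 and 49 had -1.67, -2.76, -0.07, 1.28, -1.55 and -1.17. The groups overlapped, since low PCB 52 was above oil control 15, and the oil controls themselves spread widely, with fish 45 highest. The log2 difference was -3.34 (SE 0.80, 95% interval -4.96 to -1.72, limma adjusted p = 0.465). It was -2.65 without the sex term and -2.33 when only the 11 arrays were fitted with sex. Of low PCB fish 3 of 5 had it well above background, and of oil controls 6 of 6.

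At HT_SCCWRP_58946 the level of low PCB fish 2, 29, 33, 39 and 52 was -3.82, -5.22, -4.54, -3.70 and -2.71. In oil controls 8, 15, 20, 45, 47 and 49 it was -1.37, -2.08, -2.99, -2.43, -1.31 and -1.59. The groups overlapped at 1 fish each, low PCB 52 being above oil control 20, the immature animal. The log2 difference was -2.38 (SE 0.59, limma adjusted p = 0.465), with 2 of 5 low PCB fish and 6 of 6 oil controls well above background. The sizes at the 3 dim probes depended on the processing. With normexp and its offset of 50 units the log2 difference was 0.20 at HT_SCCWRP_8292, -1.02 at HT_SCCWRP_45273 and -0.52 at HT_SCCWRP_58946. It was 1.69 at the bright HT_SCCWRP_4949. The parts of the offset and of the background correction were not told apart.

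**Figure D2:**
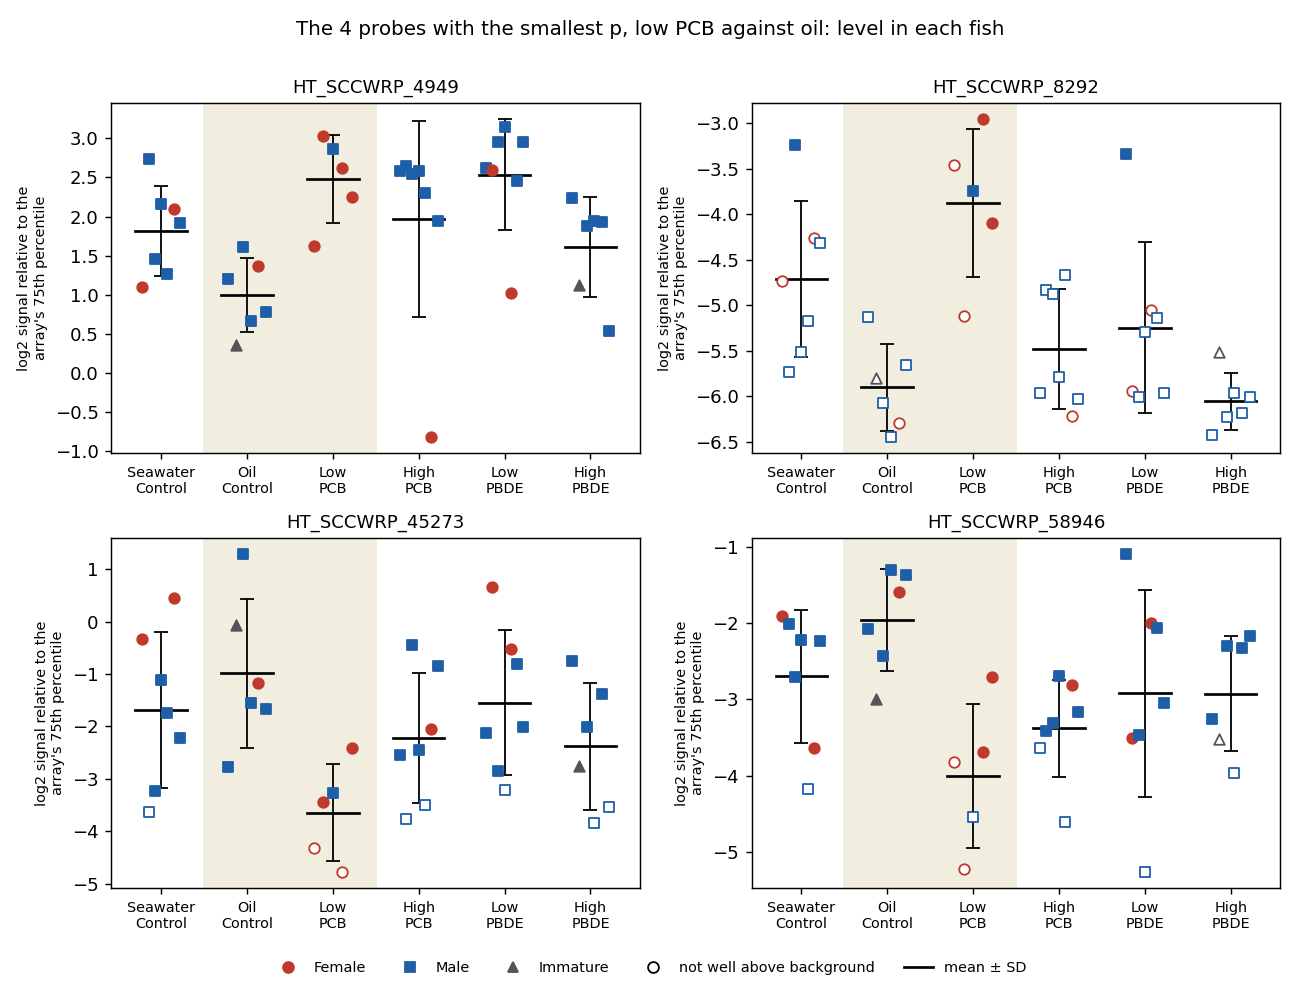
Level of the 4 probes (log2 signal relative to the array's 75th percentile) in each of the 38 fish by group, with low PCB and oil controls shaded. Symbols give the sex, open symbols are fish in which the probe was not well above background, and lines are the mean ± SD; at HT_SCCWRP_4949 the low PCB mean of 2.48 stands above the oil mean of 1.00, and the seawater and high PCB means of 1.82 and 1.97 lie between.

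The same probes in the other groups give the levels without injection and at the higher dose. All of these contrasts share fish with the comparison above and are set side by side for that reason. The seawater controls had a mean of 1.82 ± 0.58 (SD, n = 7) at HT_SCCWRP_4949. Means were 1.97 ± 1.26 (SD, n = 7) after high PCB, 2.54 ± 0.71 (SD, n = 7) after low PBDE and 1.61 ± 0.64 (SD, n = 6) after high PBDE, so oil controls had the lowest of the 6 groups. The level after low PCB was 1.12 log2 units above seawater controls (SE 0.41, limma adjusted p = 0.378), oil controls were at -0.80 relative to seawater controls (SE 0.37, adjusted p = 0.677), and the high dose was at -1.10 relative to the low dose (SE 0.43, adjusted p = 0.999). The spread after high PCB came largely from fish 40, a female at -0.82. No step between neighbours in the order of the 6 means exceeded the larger of their SDs.

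HT_SCCWRP_8292 was well above background in 1 of 7 seawater controls, 1 of 7 low PBDE fish and no fish of the high PCB and high PBDE groups. With so few fish above background, no size or direction is given for it between the PCB doses. The mean of HT_SCCWRP_45273 was -2.23 ± 1.24 after high PCB (SD, n = 7), -3.64 ± 0.93 after low PCB (SD, n = 5), -0.99 ± 1.41 with oil (SD, n = 6) and -1.69 ± 1.48 in seawater controls (SD, n = 7). At HT_SCCWRP_58946 the means were -3.38 ± 0.64 after high PCB (SD, n = 7), -4.00 ± 0.94 after low PCB (SD, n = 5), -1.96 ± 0.66 with oil (SD, n = 6) and -2.70 ± 0.88 in seawater controls (SD, n = 7). After low and high PBDE the means were -1.55 ± 1.38 (SD, n = 7) and -2.38 ± 1.21 (SD, n = 6) at HT_SCCWRP_45273. They were -2.92 ± 1.36 (SD, n = 7) and -2.92 ± 0.76 (SD, n = 6) at HT_SCCWRP_58946. Oil controls had the highest and low PCB fish the lowest mean of the 6 groups at both probes. At the 3 probes other than HT_SCCWRP_8292 the mean after the high dose lay between those of oil controls and the low dose. The choice of probes partly builds in both. No difference between the doses passed among the 10492 probes (0%, limma), and 319 (3.04%) had an unadjusted p under 0.05.

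The arrays were on 8 slides, a possible batch, and the groups could be compared within slides. Of these slides 5 held 1 low PCB fish and 1 oil control each, and oil control 20 was alone on slide 3. The pairs were low PCB 33 and oil 49 on slide 1, 39 and 47 on slide 2, 52 and 15 on slide 4, 29 and 45 on slide 6, and 2 and 8 on slide 7. In each pair 1 fish was male and the other female, so within slides the sexes were not matched. Counted over all tested probes, 906 (8.64%) had the same sign of difference on all 5 slides, 482 higher (4.59%) and 424 lower (4.04%), and 345 of these were also at an unadjusted p under 0.05. With 5 pairs no exact test can pass, so this count carries no test of its own. If the sign on each slide were random, a share of 0.0625 of the probes would have the same sign on all 5. With slide as a term in the model 0 probes passed (limma), and an unadjusted p under 0.05 was found at 775.

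Within slides, the direction at HT_SCCWRP_4949 and HT_SCCWRP_8292 is fixed, since the groups did not overlap there, and at the others the choice by p partly builds it in. HT_SCCWRP_4949 was higher in the low PCB fish on all 5 slides, by 1.49, 1.95, 1.06, 1.41 and 0.84 log2 units on slides 1, 2, 4, 6 and 7. HT_SCCWRP_8292 was higher on all 5 slides too, with oil signals that were not well above background, so no size is given. Low PCB 29 and 2, on slides 6 and 7, were not well above background there either, so on these slides the side is not measured. HT_SCCWRP_58946 was lower on all 5, from -2.95 to -0.63, with low PCB fish 2, 29 and 33 not well above background. HT_SCCWRP_45273 was lower on 4 slides and higher by 0.36 on slide 4, where oil control 15 had the lowest level of its group.

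**Figure D3:**
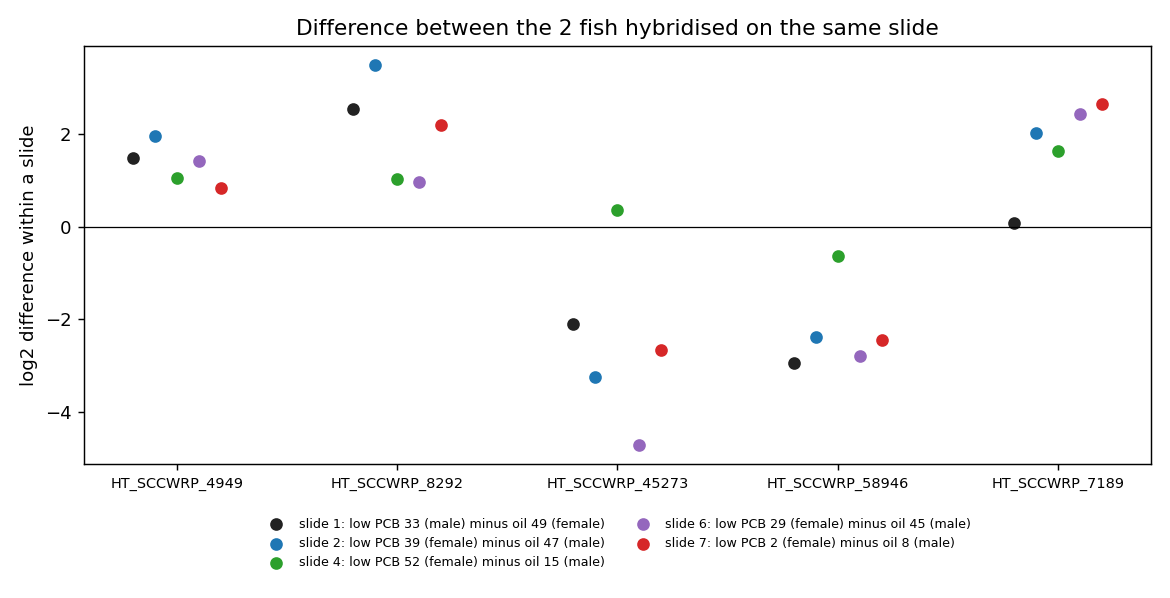
Log2 difference between the low PCB fish and the oil control hybridised on the same slide, for the 4 probes with the smallest p and for HT_SCCWRP_7189. Colours mark the 5 slides and the legend names the fish and their sex. Of the 5 probes, 4 have all their points on 1 side of 0. HT_SCCWRP_45273 has 1 point, that of slide 4, at 0.36 on the other side. At HT_SCCWRP_8292 and HT_SCCWRP_7189 no oil signal was well above background, so at most the side can be read. On slides 6 and 7 the low PCB signals at HT_SCCWRP_8292 were not well above background either, so there the side is not measured.

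Separation of the groups was also counted directly. At 79 probes (0.753%) all 5 low PCB fish lay on 1 side of all 6 oil controls, 53 with low PCB higher (0.505%) and 26 with low PCB lower (0.248%). The gap between the nearest fish of the 2 groups was small, with a median of 0.10 and a maximum of 1.04 log2 units, while the group means differed by a median of 0.88 (0.35 to 3.00). Of the 79 probes, 45 were in the brightest set and 17, 9 and 8 in the sets below it, and 62 were also at an unadjusted p under 0.05. Sex was not taken into account in this count, and the share expected with no difference between the groups was not computed. Leaving out 1 fish can only add such probes, and the count was then 97 to 195, highest without low PCB 33.

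Detection was compared over all 14757 probes, whether tested or not. Of these, 6745 were well above background in all 11 fish and 3388 in none. More probes were detected in a larger share of low PCB fish (2373) than in a larger share of oil controls (2251), but the array counts above differed by less than their spread. There were 26 probes detected in 4 or 5 low PCB fish and at most 1 oil control, and 16 detected in 5 or 6 oil controls and at most 1 low PCB fish. Complete separation was seen at 1 probe with low PCB fish detected (0.00678%) and at 0 probes with oil controls detected (0%).

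**Figure D4:**
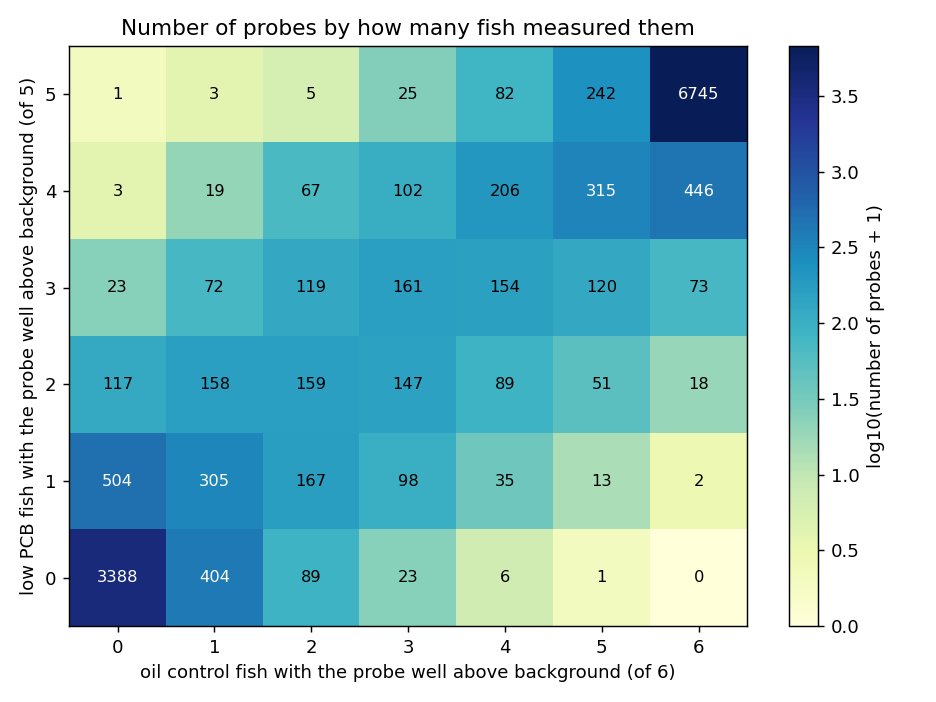
Number of probes, of 14757, by how many of the 6 oil controls (horizontal axis) and of the 5 low PCB fish (vertical axis) had the probe well above background; colour is log10 of the number plus 1. Most probes sit in the corners, 6745 detected in all 11 fish and 3388 in none, and the opposite corners hold 1 and 0 probes.

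HT_SCCWRP_7189, the probe of complete separation, is named after its values were seen. Its level in low PCB fish 2, 29, 33, 39 and 52 was -2.77, -2.79, -4.25, -2.58 and -3.90. In oil controls 8, 15, 20, 45, 47 and 49 it was -5.43, -5.53, -5.36, -5.23, -4.61 and -4.33, none well above background. The groups touched but did not overlap, with low PCB 33 next to oil control 49. In the processed signals, without adjustment for sex, the low PCB mean was at least 1.52-fold higher (measured means -3.26 and -5.08). This was taken against the lowest signal that was well above background on each oil array, or the probe's own signal where that was higher. The sex-adjusted difference had a limma adjusted p = 0.502. With normexp and its offset of 50 units the fitted log2 difference was 0.17, against 1.69 in the processed signals. The direction on each of the 5 slides is fixed by this separation. Among other fish, 2 of 7 seawater controls, 1 of 7 high PCB, 2 of 7 low PBDE and 1 of 6 high PBDE fish had it well above background. That high PBDE fish, number 4, was at -2.98, within the range of the low PCB fish. Without 1 of the fish at a time, 1 to 3 probes were separated in this way.

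Sex was unevenly spread, with 4 of 5 low PCB fish female and 4 of 6 oil controls male, and it set how much each fish counted. In the sex-adjusted difference low PCB 33, the male of its group, had a weight of 29.3% and the 4 females 17.7% each. Oil controls enter with a negative weight, which was -27.8% for the female, fish 49, -16.2% for each of the 4 males and -7.37% for the immature fish. Fish of the other groups enter through the sex term, with absolute weights that sum to 101%, the largest being -9.92% for high PCB 40. When only the 11 arrays were fitted with sex, low PCB 33 and oil 49 took 50% each of their groups, and the count at an unadjusted p under 0.05 was 453 with 0 passing. Without low PCB 33 the count was 1499, 804 higher and 695 lower, with 0 passing (limma), and it was 981 when the sex term was left out as well. The low PCB group is then female only.

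Within a sex, each comparison rested on a lone fish in 1 group. Among females, 4 low PCB fish against oil control 49, 1 probe passed (0.00953%), and 759 had an unadjusted p under 0.05 (7.23%). Among males, low PCB 33 against 4 oil controls, 1 probe passed (0.00953%), with 702 at an unadjusted p under 0.05 (6.69%). In both the lone fish is assumed to vary like the other fish of its sex, to which each fit was limited. The female call was HT_SCCWRP_641, with a log2 difference of 4.21. Oil control 49 was at -4.13 and the other 5 oil controls lay between -0.25 and 0.29. The signal of oil control 49 was not well above background, so the size of 4.21 is not a measured one. The low PCB females lay between -0.10 and 0.23. Low levels also occurred in high PCB 25, 32 and 41 (-5.45, -4.43 and -2.77, the signals of 25 and 32 not well above background) and seawater control 7 (-1.84). These fish are males, so the female fit did not include their spread. The remaining fish of other groups lay between -0.38 and 0.37. In the sex-adjusted fit of all groups the log2 difference was 0.88 (SE 0.84, limma adjusted p = 0.892). The male call was HT_SCCWRP_4192 (2.71, limma adjusted p = 0.0301), where low PCB 33 was at 0.35 and the other 10 fish lay between -3.24 and -1.94. In each case the lone fish stood apart from the other 10 low PCB and oil fish. Both probes were picked by the fit and are named after their values were seen.

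Whether the low PCB effect differed between the sexes was tested as an interaction over females and males. At an adjusted p under 0.05, 22 of 10492 probes passed (0.21%, limma), 16 with a more positive difference in females and 6 with a more negative one, and 1255 (12%) were at an unadjusted p under 0.05. The adjusted p ranged from 0.0306 to 0.0400. The smallest p in either direction were those of HT_SCCWRP_15612 (female minus male difference 4.48, SE 0.84) and HT_SCCWRP_6851 (-10.1, SE 2.00), and both sizes rest on signals not well above background. With normexp they were 1.07 and -2.68, neither passed (limma adjusted p = 0.557 and 0.0856), and 3 probes passed in all. At HT_SCCWRP_15612 low PCB 33 had a level of -4.92 and oil control 49 of -5.68, neither well above background, and the other 9 fish lay between -3.57 and -2.45. At HT_SCCWRP_6851 low PCB 33 was at -0.0029 and oil control 49 at -0.19, and the other 9 lay between -6.11 and -2.50, all but oil control 8 not well above background. These fish are of different sex and treatment and stood on the same side of the rest at both probes. The interaction counts both with the same sign, so choosing probes by it partly builds this in.

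The same held for nearly all of the 22 probes. Low PCB 33 was outside the range of the other 9 fish at 22 of 22, and oil control 49 at 21 of 22, on the same side as low PCB 33 each time, 15 below and 6 above. The choice of probes by the interaction partly builds this in for low PCB 33 and oil control 49. At 14 of the 22 probes at least 1 of these fish was well above background. Both were hybridised on slide 1 and were the lone fish of their sex in their groups. The other 3 fish on slide 1, of other groups, were outside the same range on that side at 13 to 17 of the 22 probes, and the 24 fish of other groups on other slides at 1 to 15. With slide in the model 0 of the 10492 probes passed (limma), and the count at an unadjusted p under 0.05 was 499. The count was also 0 after quantile normalization, without low PCB 29 and without oil control 45. A sex difference of the effect and a difference of slide 1 cannot be told apart with these 2 fish.

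**Figure D5:**
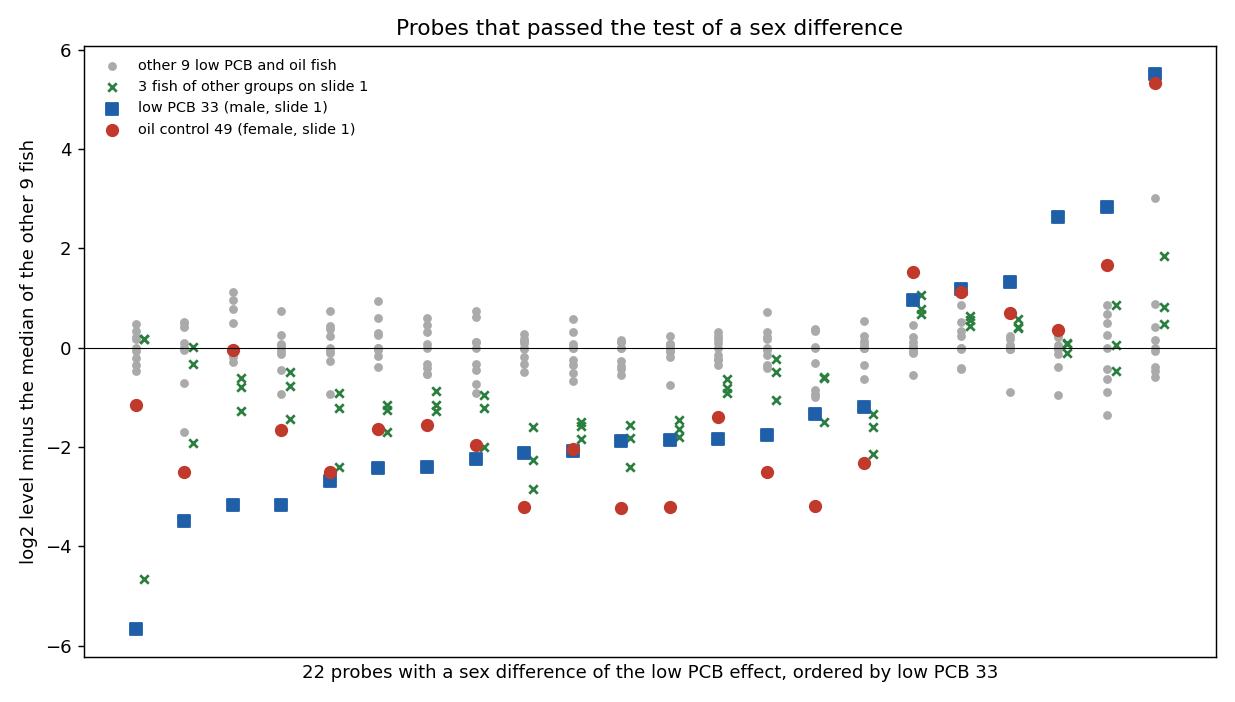
Log2 level relative to the median of the other 9 low PCB and oil fish, for the 22 probes that passed the test of a sex difference, ordered by the level of low PCB 33. Low PCB 33 (square) and oil control 49 (large circle) lie on the same side of the other 9 fish (grey) at 21 of 22 probes, which the choice of probes partly builds in. Crosses are the 3 fish of other groups on slide 1.

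Most of the fish that departed most from the rest were low PCB fish, but the first was an oil control. Oil control 20, the immature fish, was the farthest from the median of the 11 fish at 14.6% of the tested probes. Low PCB 29 (13.8%), 2 (12.0%), 33 (11.1%) and 52 (9.41%) followed. The other oil controls were at 5.59% to 7.98%, and low PCB 39 was at 5.21%. This difference between the groups was not tested. At the median probe the SD between fish was 0.55 log2 units in low PCB fish and 0.51 in oil controls.

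With seawater controls in place of oil controls, 9 probes passed (0.0858%, limma) and 873 (8.32%) had an unadjusted p under 0.05. This number depended on single fish. It was 0 without seawater control 7, whose description names the vehicle, and also 0 without seawater control 6, 22 or 24 or low PCB 29 or 39. Without low PCB 2, low PCB 52, seawater control 35 or low PCB 33 it was 2, 5, 14 and 22. Against oil, all 9 had a difference in the same direction, 7 of them at an unadjusted p under 0.05, with a smallest adjusted p of 0.479. The mean of oil controls lay between those of seawater controls and low PCB fish at 9 of 9 probes, which their choice partly builds in. The size of the difference at these probes was 0.79 to 3.61 log2 units against seawater controls and 0.29 to 2.75 against oil controls.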

How the data were processed

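Per the file headers, the deposited spot intensity values came from Feature Extraction 11.5.1.1, 1 scanner file per fish; the labels' protocols give a mean RNA integrity number of 8.9 (7.1 to 9.2). The deposited intensity table of the series differed from the scanner values by at most 0.497%.

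From the processed signals, log2 levels relative to the 75th percentile of each array were computed over 15207 non-control spots and averaged per probe (14757 probes). Probes well above background on at least 5 of 38 arrays were tested. A probe with 10 spots counted where at least 50% of them were, a rule set to match earlier processing after the counts were seen. Flagged spots (8 to 27 per array) were left out, which removed 10 probes, and 0 spots were saturated. All 38 arrays were fitted with group and sex in limma 3.58.1 (R 4.3.3, empirical Bayes with an intensity trend, Benjamini-Hochberg adjustment, two-sided). The fit was tested on simulated data with independent noise and no slide effect, so that test says nothing about slide effects. Within-sex values came from separate fits of the female or the male fish, with group alone. The sex difference came from a fit of group and sex combined. The number of arrays limits precision.

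Named probes were the 2 with the smallest p in each direction, since the planned gene and marker lists need gene names. The comparison, lists and tests were chosen with earlier results of these data known. Alternatives were other scalings, normexp with an offset of 50 units, filters, sex and slide terms, other controls, and fits without each fish.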

Additional observations from a re-analysis of the deposited data

Results flagged for a closer look

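In groups of 4 to 10 fish, the highest or lowest fish was checked for a gap to its nearest neighbour that was large against the range of the group. Of 42 such checks 9 stood out, where chance gives about 1 in 20. Low PCB 39 had a mean correlation with its own group of 0.9487, above the other 4 low PCB fish. At HT_SCCWRP_4949, low PBDE 48 (1.02) and high PCB 40 (-0.82), both female, were below the rest of their groups. At HT_SCCWRP_8292, low PBDE 12 was above its group at -3.34. The other cases were at probes that had been picked by tests that rest on 1 fish, which partly builds this in. They were oil control 49 at HT_SCCWRP_641 (-4.13), low PCB 33 at HT_SCCWRP_4192 (0.35), low PCB 33 and oil control 49 at HT_SCCWRP_15612 (-4.92 and -5.68) and low PCB 33 at HT_SCCWRP_6851 (-0.0029).

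The difference between females and males in the low PCB effect passed at 22 probes. Named among them were HT_SCCWRP_15612 (4.48), HT_SCCWRP_6851 (-10.1) and HT_SCCWRP_4192 (-2.93, limma adjusted p = 0.0306). The sizes at HT_SCCWRP_15612 and HT_SCCWRP_6851 rest on signals not well above background, and with normexp neither passed. Low PCB 33 and oil control 49 shared slide 1, so a sex difference of the effect and a difference of slide 1 cannot be told apart. The number of passing probes fell with slide in the model, as given above.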

How the results depend on the processing

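No probe passed for low PCB against oil in 28 of 31 other settings (0 of those tested, limma). The exceptions were females only (1), males only (1) and seawater controls as reference (9). Without each fish in turn it was 0. The count at an unadjusted p under 0.05 stayed within 1.5 times of 788 in 27 of 31 settings. It was 355 with normexp background correction, 453 in the fit of 11 arrays with sex, and 572 to 1499 without each fish. For probes well above background on all arrays it was 522 of 5564, a lower count but a larger share than the 7.51% of the main fit. The 4 named probes and HT_SCCWRP_7189 kept their sign in every setting that held them and passed in none. There were 30 such settings for HT_SCCWRP_4949, 28 for HT_SCCWRP_8292 and 29 for each of the others, since stricter filters dropped dim probes. Seawater controls as reference was among them. Normexp gave 0.20 at HT_SCCWRP_8292, -1.02 at HT_SCCWRP_45273, -0.52 at HT_SCCWRP_58946 and 0.17 at HT_SCCWRP_7189, against 1.69 at HT_SCCWRP_4949. Normexp also turned 3 contrasts with other groups: low PCB minus seawater at HT_SCCWRP_8292 (-0.27), oil minus seawater at HT_SCCWRP_58946 (-0.018) and high minus low PCB at HT_SCCWRP_8292 (0.044). The offset and the background correction of this setting were not told apart, and the cause was not tested.

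Settings in this paragraph were added after seeing the data, other than those of the sex difference and normexp. Separated probes numbered 46 with normexp, and 97 to 195 without each fish, past 1.5 times the count without low PCB 2 (129), 33 (195), 39 (143) or 52 (159), or oil control 8 (128), 15 (133) or 49 (138). Probes detected in 1 group only numbered 1 to 3. Without each fish, the group difference was -77 to 400.4 probes well above background (within slides -67.2), -19.5 to 14.04 units at the 75th percentile, -1.38 to 0.50 units of background and -0.0113 to -0.00552 in mean correlation, none past the threshold. The sex difference passed at 0 to 27 probes without each of 8 fish (it has no value without low PCB 33 or oil control 49, and oil control 20 is of neither sex), at 0 with quantile normalization or, added later, slide in the model, and at 3 with normexp, also added later, which gave 1.07 at HT_SCCWRP_15612 and -2.68 at HT_SCCWRP_6851. The 9 probes against seawater controls numbered 0 to 22 without each fish. Counting seawater control 7 as an oil control gave 0 passing probes against oil and 849 at an unadjusted p under 0.05.

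Fish that shared a slide were compared as pairs, as given above. By replicate number, no paired analysis was possible because the fish numbers are animal labels and none is shared between groups. Dim probes had the widest intervals, and the number of arrays and the uneven sexes limit the power of every test.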
